A study of Mus musculus with 2 samples.

Results

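The Mir181 family of mouse microRNA (miRNA) genes has 6 members, which were taken from the deposited count files by matching their Ensembl identifiers to the gene names Mir181a-1, Mir181b-1, Mir181a-2, Mir181b-2, Mir181c and Mir181d. They are 6 of the 1973 annotated miRNA genes in the files. The tissue was facial prominence of B6NCrl mouse embryos at 13.5 days, pooled over male and female embryos and described as healthy. Short RNA below 30 bases was sequenced in 2 libraries, biological replicates 1 and 2. There is 1 group and no contrast between conditions, so what can be given is the level of each gene and its spread. Both libraries are tied to the same donor entry in the labels, and nothing states how many embryos were pooled. Replicate 1 held 4562135 counts on the strand of a miRNA gene and replicate 2 held 5771249.

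A miRNA gene is transcribed as a hairpin, from which a mature strand of the 5′ arm (5p) and one of the 3′ arm (3p) can be cut. The mature strand guides the Argonaute complex to messenger RNAs that pair with its seed, bases 2 to 8. In mice the Mir181 family is best known from developing T cells, where miR-181a tunes the strength of T cell receptor signalling and the Mir181a-1/Mir181b-1 locus is the main source. Family members are also known from myoblast differentiation and from retinal neurons. The genes stand in pairs of an a-like and a b-like copy at 3 loci, which arose by duplication of an ancestral pair.

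The mature sequences are shown because they decide which reads can be placed. Those of the 5p arm come to 4 sequences for 6 genes, from RefSeq on GRCm38.p6, with the seed in capitals:
miR-181a-5p: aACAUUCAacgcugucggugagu
miR-181b-5p: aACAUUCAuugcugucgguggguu
miR-181c-5p: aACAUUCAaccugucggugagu
miR-181d-5p: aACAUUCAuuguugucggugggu

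All 4 have the seed ACAUUCA, and no mature sequence of another gene in the RefSeq table has it. Counted from the 5′ end, miR-181b-5p differs from miR-181a-5p by A9U, C10U and A21G over 23 positions. The change from miR-181b-5p to miR-181d-5p is C12U alone. miR-181c-5p is miR-181a-5p without the G at position 11. The sequence of miR-181a-5p stands in both Mir181a-1 and Mir181a-2, and that of miR-181b-5p in both Mir181b-1 and Mir181b-2, whereas miR-181c-5p and miR-181d-5p have a single gene each.

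The 3p arms differ between the copies, with 6 sequences for 6 genes:
miR-181a-1-3p: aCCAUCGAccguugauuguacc
miR-181a-2-3p: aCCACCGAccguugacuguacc
miR-181b-1-3p: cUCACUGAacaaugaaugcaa
miR-181b-2-3p: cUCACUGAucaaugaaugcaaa
miR-181c-3p: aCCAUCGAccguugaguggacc
miR-181d-3p: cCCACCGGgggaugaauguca

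By seed, miR-181a-1-3p goes with miR-181c-3p (CCAUCGA) and miR-181b-1-3p with miR-181b-2-3p (UCACUGA). miR-181a-2-3p and miR-181d-3p each have a seed found in no other mature sequence of the table. Between the a copies the 3p arms differ by U5C and U16C, and between the b copies by A9U over 21 positions.

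Mir181a-1 spans, on chromosome 1 and its plus strand, 137966455 to 137966541 (GRCm38, as are all positions here), and Mir181b-1 follows from 137966639 to 137966718, with 97 bases between the hairpins. Both are in an intron of the non-coding gene Gm4258 and overlap the exon of the long non-coding RNA A430106G13Rik, and the opposite strand carries an intron of Gm26936. Mir181a-2 spans 38852735 to 38852810 on chromosome 2, plus strand, and Mir181b-2 spans 38853830 to 38853918, 1019 bases apart. Both are opposite an intron of Nr6a1, which encodes an orphan nuclear receptor, and Mir181b-2 is also opposite an exon of Gm44144. Mir181c spans 84178873 to 84178961 on chromosome 8, minus strand, and Mir181d spans 84178716 to 84178787, 85 bases apart, both in an intron of a Nanos3 transcript, a gene of germ cell development.

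Gene counts hold reads with a single place in the genome, because reads with several places form a class of their own in the files. That class held 3179149 reads in replicate 1 and 4058237 in replicate 2, which were 30.7% and 31.0% of all reads of each file. It is not split by gene, so the reads that the a and b copies lost to it cannot be counted. The class was 124 times the counts of the 4 a and b copies together in replicate 1 and 115 times in replicate 2. The levels of these 4 genes are therefore those of reads that can be told apart, and they set no upper limit on the mature miRNA.

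The extent of the shared sequence shows which reads of the copies can be placed. The hairpins of the 4 copies are printed from RefSeq on GRCm38.p6, with the longest run that is identical in the other copy in capitals:
Mir181a-1: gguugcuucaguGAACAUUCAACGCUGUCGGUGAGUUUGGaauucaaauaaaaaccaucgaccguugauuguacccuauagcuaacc
Mir181a-2: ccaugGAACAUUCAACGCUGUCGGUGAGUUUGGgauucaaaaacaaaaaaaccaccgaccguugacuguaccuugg
Mir181b-1: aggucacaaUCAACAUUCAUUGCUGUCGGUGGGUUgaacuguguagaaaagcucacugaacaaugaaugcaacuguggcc
Mir181b-2: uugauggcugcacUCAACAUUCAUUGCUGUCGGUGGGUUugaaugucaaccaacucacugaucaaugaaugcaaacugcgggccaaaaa

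Between Mir181a-1 and Mir181a-2 the identical run is 28 bases, which takes in miR-181a-5p with 1 base before it and 4 bases after it. Between Mir181b-1 and Mir181b-2 the run is 26 bases, with 2 bases before miR-181b-5p and 0 after it. The base after the run is A in Mir181a-1 and G in Mir181a-2, and G in Mir181b-1 and U in Mir181b-2. A read of miR-181b-5p with 1 more base of its own hairpin at the 3′ end thus has 1 matching b copy. By contrast, a read of miR-181a-5p extended along its hairpin at that end matches both a copies until it is 5 bases longer. An added base that does not come from the hairpin can match the other copy or neither, and such reads were not analysed.

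Outside the 5p arm the copies are distinct. Of all windows of 22 bases along a hairpin, 89.4% in Mir181a-1, 91.5% in Mir181b-1, 87.3% in Mir181a-2 and 92.6% in Mir181b-2 occurred in none of the other miRNA hairpins of GENCODE release M21, on either strand. In Mir181c and Mir181d this share was 100%. The windows that were not distinct all began at or within 6 bases of the start of the shared run, as the map of the hairpins shows. No arm of the family was found in a transcript of GENCODE release M21 other than those of the 6 genes and of genes at the same place, A430106G13Rik and, reversed, Gm44144.

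**Figure D1:**
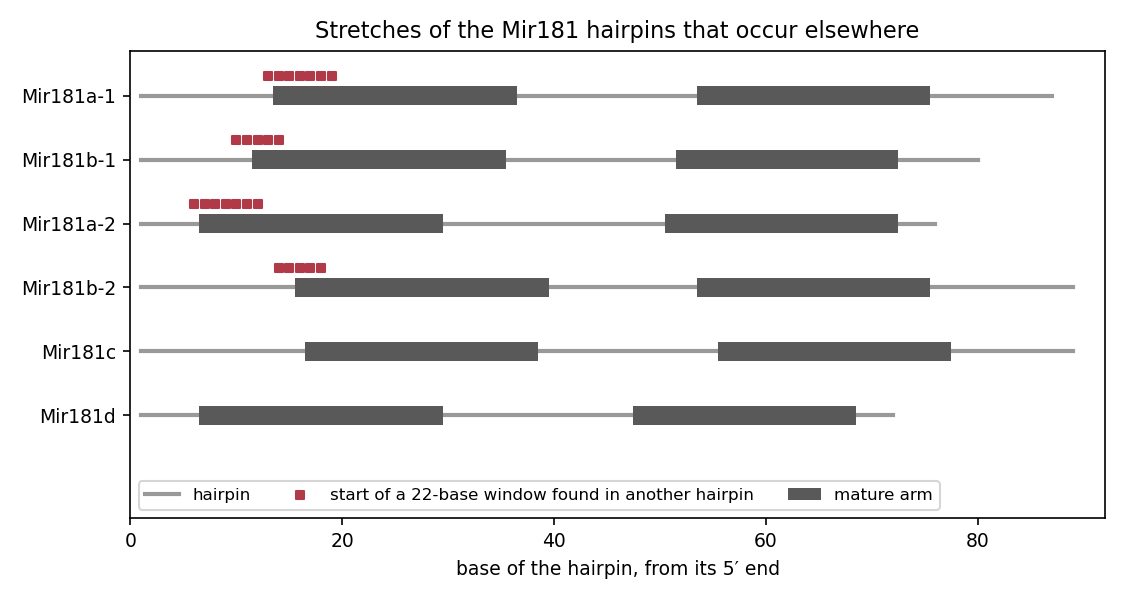
Map of the 6 hairpins, with position in bases from the 5′ end on the horizontal axis, mature arms as dark bars and red squares at the start of each 22-base window that also occurs in another miRNA hairpin. The squares stand at the 5p arm of the 4 a and b copies, and Mir181c and Mir181d have none.

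Together the 6 genes held 78489 counts in replicate 1 and 114436 in replicate 2, or 1.72% and 1.98% of the counts on miRNA genes (1.85 ± 0.186%, SD, n = 2). All 6 passed the filter of at least 10 counts in both libraries. Counts on the opposite strand were 0 at each of the 6 genes in both libraries. Levels are given as CPM, the counts of a gene per 1000000 same-strand counts of all miRNA genes, and intervals for a library are 95% Wilson intervals, which cover counting error only. Each small RNA read stands for 1 cut strand, so CPM was not divided by length, and a level per base of hairpin is given where it bears on the order.

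The locus of Mir181c and Mir181d on chromosome 8 gave the most counts. Mir181c stood at 7115 CPM (7038 to 7192) in replicate 1 and 8433 CPM (8359 to 8508) in replicate 2, a mean of 7774 ± 932 CPM (SD, n = 2). Mir181d stood at 4471 CPM (4411 to 4533) in replicate 1 and 5272 CPM (5214 to 5332) in replicate 2, a mean of 4872 ± 566 CPM. Both genes were lower in replicate 1 than in replicate 2, and both libraries of Mir181c lay above those of Mir181d. Mir181c exceeded Mir181d by 1.59-fold (1.56 to 1.62) in replicate 1 and by 1.60-fold (1.58 to 1.62) in replicate 2, so the ratio within the locus held while both levels moved. The arms of both genes had no exact match in another hairpin, but miR-181d-5p is 1 base from miR-181b-5p, and whether reads were placed with mismatches is not known here.

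At the locus on chromosome 1 the a copy was far above the b copy. Mir181a-1 stood at 3932 CPM (3875 to 3990) in replicate 1 and 4033 CPM (3981 to 4085) in replicate 2, a mean of 3983 ± 71.0 CPM (SD, n = 2). Mir181b-1 stood at 25.4 CPM (21.2 to 30.5) in replicate 1, from 116 counts, and at 28.9 CPM (24.9 to 33.7) in replicate 2, from 167 counts. It was the lowest of the 6 genes in both libraries. Mir181a-1 exceeded Mir181b-1 by 155-fold (129 to 186) in replicate 1 and by 139-fold (120 to 162) in replicate 2.

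At the locus on chromosome 2 the order was the other way round. Mir181b-2 stood at 1526 CPM (1491 to 1563) in replicate 1 and 1916 CPM (1881 to 1952) in replicate 2, a mean of 1721 ± 276 CPM (SD, n = 2). Mir181a-2 stood at 134 CPM (124 to 145) in replicate 1 and 145 CPM (136 to 155) in replicate 2, a mean of 140 ± 7.69 CPM. The b copy was above the a copy here in both libraries, by 11.4-fold (10.5 to 12.4) in replicate 1 and by 13.2-fold (12.3 to 14.2) in replicate 2.

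**Figure D2:**
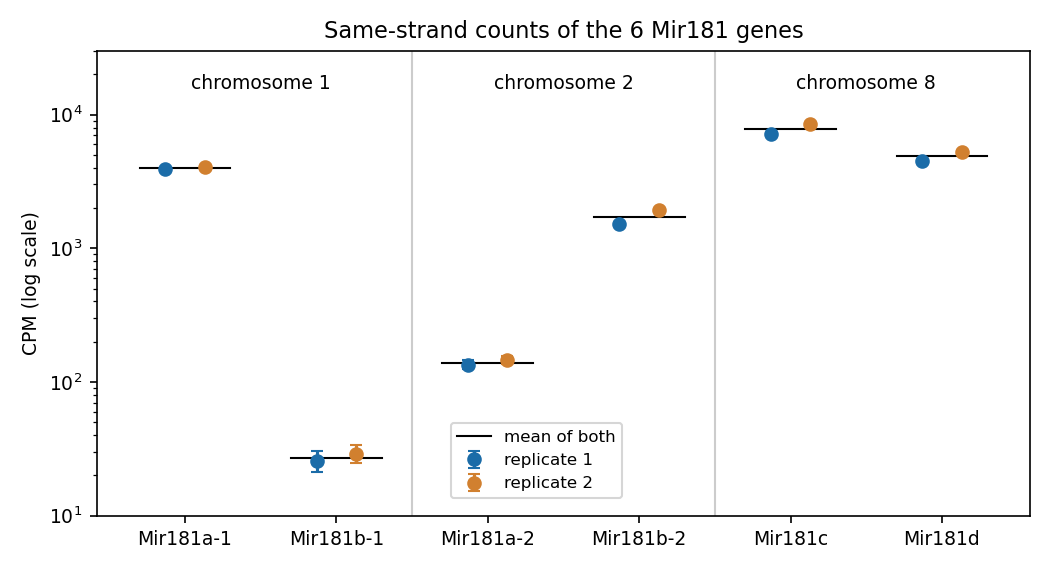
Level of each Mir181 gene in CPM on a log axis, by locus, with 1 point per library, 95% Wilson intervals as bars and the mean of both libraries as a line. The a copy leads on chromosome 1 and the b copy on chromosome 2, while Mir181c and Mir181d on chromosome 8 lie close together.

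Compared across loci, the copies of a shared mature sequence also lay far apart. Mir181a-1 exceeded Mir181a-2 by 29.3-fold (27.0 to 31.8) in replicate 1 and by 27.8-fold (26.0 to 29.8) in replicate 2. Mir181b-2 exceeded Mir181b-1 by 60.0-fold (50.0 to 72.1) in replicate 1 and by 66.2-fold (56.8 to 77.1) in replicate 2. The a copies thus put the chromosome 1 locus first and the b copies put the chromosome 2 locus first, in both libraries. Mir181d, with no shared arm, exceeded Mir181b-1 by 176-fold in replicate 1 and 182-fold in replicate 2, and Mir181b-2 by 2.93-fold and 2.75-fold. Mir181c exceeded Mir181a-1 by 1.81-fold and 2.09-fold and Mir181a-2 by 53.0-fold and 58.1-fold. In these folds the counts of the a and b copies lack the reads that match both copies exactly.

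Summed by locus, Mir181c and Mir181d held 67.3% of the family's counts (67.0 to 67.7) in replicate 1 and 69.1% (68.9 to 69.4) in replicate 2. The locus of Mir181a-1 and Mir181b-1 held 23.0% (22.7 to 23.3) and 20.5% (20.3 to 20.7), and that of Mir181a-2 and Mir181b-2 held 9.65% (9.45 to 9.86) and 10.4% (10.2 to 10.6). In CPM these sums were 12646 ± 1499 for chromosome 8, 4010 ± 73.5 for chromosome 1 and 1861 ± 283 for chromosome 2 (SD, n = 2). The order of the loci was the same in both libraries. It is an order of uniquely placed reads and leaves out miR-181a-5p and miR-181b-5p as far as their reads had several places.

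From highest to lowest the genes stood as Mir181c, Mir181d, Mir181a-1, Mir181b-2, Mir181a-2 and Mir181b-1, and no neighbours in this order overlapped between their libraries. The narrowest gap was between Mir181d and Mir181a-1, where Mir181d was higher by 1.14-fold within replicate 1 and by 1.31-fold within replicate 2. All genes were measured in the same 2 libraries, and the order was not tested. Per base of hairpin the order was the same, at 87.3 CPM per base for Mir181c, 67.7 for Mir181d, 45.8 for Mir181a-1, 19.3 for Mir181b-2, 1.84 for Mir181a-2 and 0.340 for Mir181b-1.

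Among the 683 miRNA genes with a count in either library, the family was spread from the abundant to the middle range. Mir181c was at rank 28 by mean CPM, Mir181d at rank 42, Mir181a-1 at rank 49 and Mir181b-2 at rank 78. Mir181a-2 was at rank 166 and Mir181b-1 at rank 252. The genes nearest in log2 CPM over both libraries were Mir200c and Mir411 for Mir181c, Mir30a and Mir423 for Mir181d, Mir30d and Mir351 for Mir181a-1, and Mir16-1 and Mir425 for Mir181b-2. For Mir181a-2 they were Mir132 and Mir329 and for Mir181b-1 Mir582 and Mir3072. Distances ranged from 0.0254 log2 units for Mir30d to 0.241 for Mir411, and with 2 libraries such nearness is one of level.

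**Figure D3:**
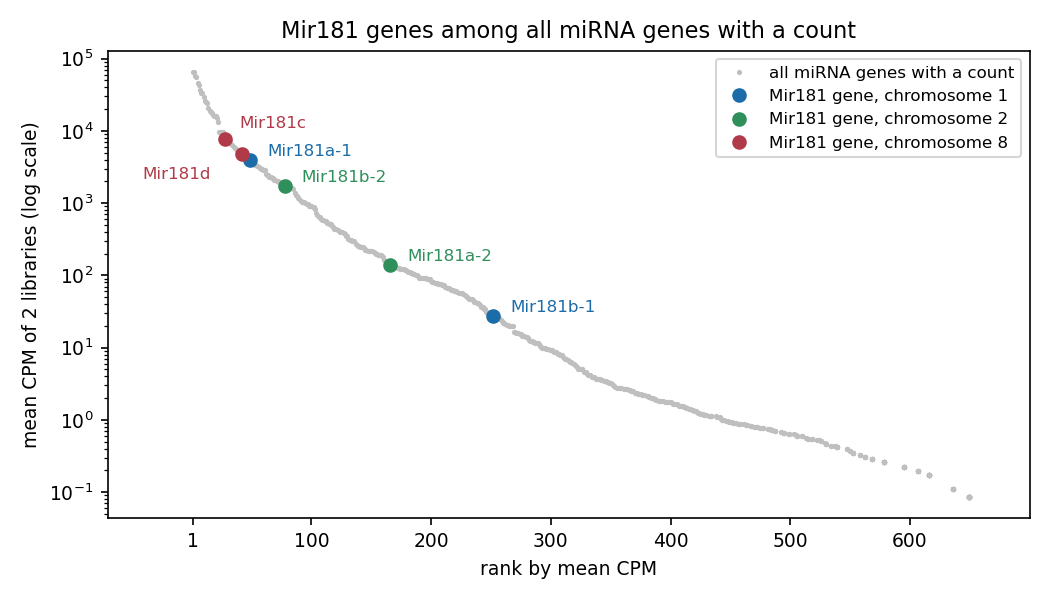
Mean CPM of each miRNA gene with a count on a log axis against its rank, with the Mir181 genes in colour by chromosome. Mir181c, Mir181d, Mir181a-1 and Mir181b-2 lie within the first 78 ranks, and Mir181a-2 and Mir181b-1 lie at ranks 166 and 252.

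The a and b copies were set beside other genes with a shared arm. A mature sequence in RefSeq was found for 916 of the 1973 genes. In 56 of them some but not all arms occurred in another hairpin, and Mir181a-1, Mir181a-2, Mir181b-1 and Mir181b-2 are 4 of these. In 814 genes, Mir181c and Mir181d among them, no arm did, and in 46 genes every arm did. Of the genes with some arms shared, 37 had at least 10 counts in both libraries, with a median of 56.7 CPM, against a median of 134 CPM in the 282 such genes with no arm shared and 76.5 CPM in the 8 such genes with every arm shared. The order depends on that filter, which 66.1% of genes with some arms shared passed, 34.6% of those with none and 17.4% of those with all. Over every gene of a class, many of which had no count, the order turned round, at 13.9 CPM with some arms shared, 0.502 CPM with none and 0 CPM with all. Neither set of medians therefore says that genes with a shared arm were lower, and both are given as a description.

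Within those 37 genes Mir181a-1 had the highest level, at 3983 CPM, followed by Mir92-1 at 3445 CPM. Mir181b-2 was in place 5, Mir181a-2 in place 10 and Mir181b-1 in place 24. The same group held Mir16-1, which like Mir181b-2 shares its mature sequence with a copy at another locus, at 1601 ± 241 CPM (SD, n = 2), and its copy Mir16-2 at 301 ± 8.61 CPM. The level of the a and b copies of Mir181 therefore ran from the top of the group to below its middle.

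In all, 21 pairs of genes with a shared mature sequence had at least 10 counts in both libraries for both genes, with some genes in more than 1 pair. The fold between the members of a pair ranged from 1.06 to 86.2, with a median of 4.08, taking mean CPM over the libraries. The b copies of Mir181 were the second widest pair, at 63.3-fold, and the a copies the third, at 28.5-fold. The widest was Mir199b over Mir199a-1, of the mesenchymal Mir199 genes, and the fourth was Mir92-1 over Mir92-2, at 28.4-fold. In that family Mir199b stood at 2093 ± 261 CPM, Mir199a-2 at 265 ± 34.2 CPM and Mir199a-1 at 24.3 ± 4.88 CPM (SD, n = 2). Mir16-1 over Mir16-2 stood at 5.32-fold, while their neighbours Mir15a and Mir15b stood at 2851 ± 161 and 1030 ± 51.7 CPM. The Mir29 copies entered no pair, with 9 and 13 counts for Mir29b-1 and 0 and 3 for Mir29b-2 in replicates 1 and 2, beside 83.8 ± 14.6 CPM for Mir29a and 41.2 ± 4.67 CPM for Mir29c. No pair is independent of which arms its genes share, and no test was made of where the Mir181 pairs stand.

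**Figure D4:**
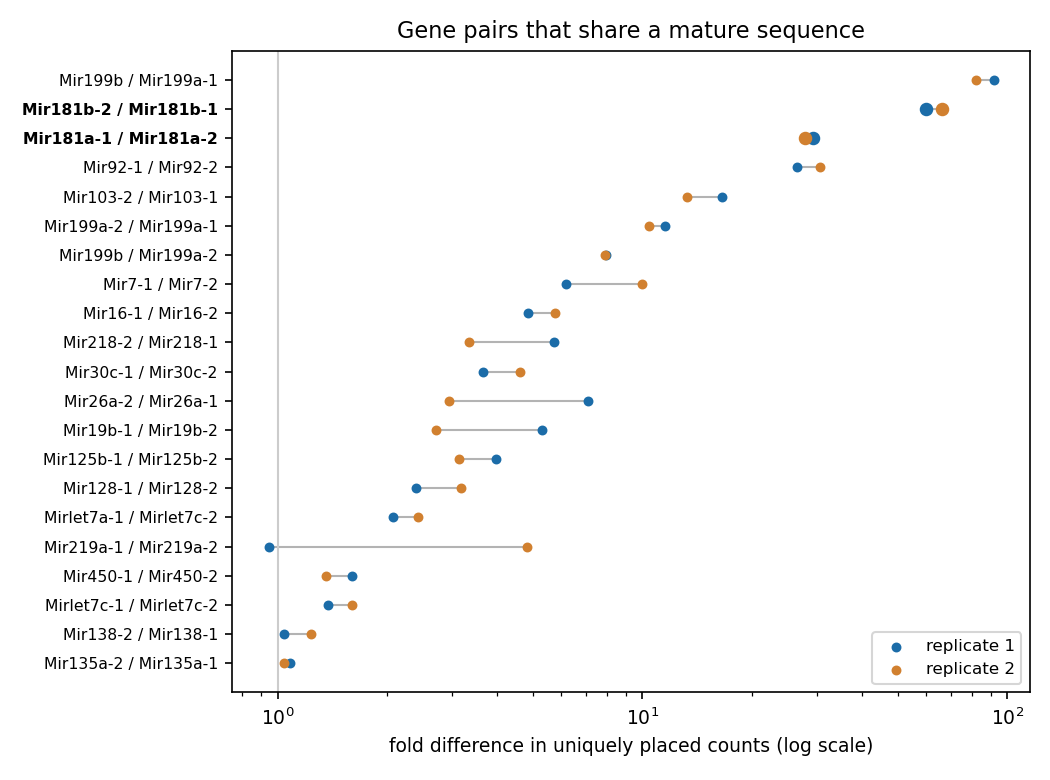
Fold difference in uniquely placed counts between the genes of each of the 21 pairs that share a mature sequence, on a log axis, with 1 point per library and pairs ordered by the fold of their mean CPM. The Mir181b and Mir181a pairs, in bold, are next to the top pair, Mir199b over Mir199a-1.

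The libraries were compared gene by gene with a two-sided exact binomial test on counts scaled by TMM, a trimmed mean of ratios, over all 360 genes with at least 10 counts in both, adjusted by Benjamini-Hochberg. The test sets a difference between these libraries against counting error and compares no conditions. In bulk tissue, fewer cells of a type and less RNA per cell cannot be told apart. It called 55.0% of all tested genes, 27.2% higher and 27.8% lower in replicate 1, and 4 of the 6 Mir181 genes, 0 higher and 4 lower in replicate 1. All 6 had a negative log2 ratio of replicate 1 to replicate 2, with a median of -0.21, against a median of 0.01 over all tested genes.

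The log2 ratio was -0.33 ± 0.02 (counting SE) for Mir181b-2 (adjusted p = 1.20e-49, exact binomial test), -0.24 ± 0.01 for Mir181c (adjusted p = 7.61e-124) and -0.24 ± 0.01 for Mir181d (adjusted p = 1.94e-73). For Mir181a-1 it was -0.04 ± 0.01 (adjusted p = 0.0246). In Mir181a-2 and Mir181b-1 it was -0.11 ± 0.08 and -0.19 ± 0.17, and neither passed (adjusted p = 0.214 and 0.403, exact binomial test). The genes that passed include one with a difference of 1.03-fold, so at these counts the call says little about size. The median absolute log2 ratio was 0.21 over the 6 genes and 0.24 over all tested genes, and 5 of the 6 lay within 1.2-fold. Of all tested genes, 51.7% had a difference no larger than that of Mir181c, which lay within 1.2-fold. For Mir181b-2, which lay outside it, the share was 64.2%. The closeness is thus no trait of the family.

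**Figure D5:**
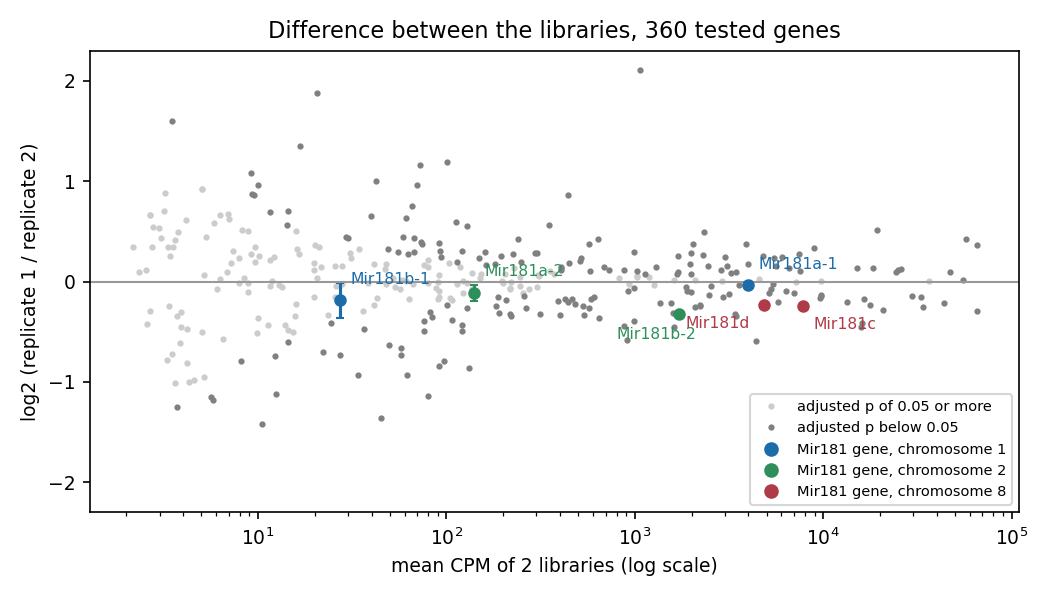
Log2 ratio of replicate 1 to replicate 2 for the 360 tested genes against mean CPM on a log axis, with the Mir181 genes in colour and their counting SE as bars. All 6 Mir181 genes lie below 0, within the spread of genes of like level.

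The cell types that the tissue could hold were read from miRNA genes known to mark them. Markers of facial mesenchyme and cartilage (5 genes) summed to 47597 CPM in replicate 1 and 49893 CPM in replicate 2, and those of epithelium (7 genes) to 63539 and 63309 CPM. White blood cell markers, 4 of 5 of which were in the files, summed to 569 and 562 CPM, with Mir223 of myeloid cells at 383 and 363 CPM and Mir150 of mature lymphocytes at 8.11 and 11.6 CPM. Erythroid markers (3 genes) summed to 101 CPM in replicate 1 and 160 CPM in replicate 2, eye and sensory markers (5 genes) to 21606 and 24411 CPM, and the endothelial Mir126a stood at 25810 and 23871 CPM. Mir183, Mir96 and Mir182 made up most of the eye and sensory sum. The other genes of that list were low, Mir204 at 93.4 and 170 CPM and Mir211 at 54.6 and 43.5 CPM in replicates 1 and 2. Neural markers in the files (6 of 7) summed to 324 and 309 CPM and striated muscle markers (5 of 6) to 583 and 325 CPM, with 3 genes of each at 0 uniquely placed counts, Mir124a-1, Mir124a-3, Mir9-2, Mir1a-1, Mir133a-1 and Mir133a-2. Mir137 gave 315 and 304 CPM of the neural sum and Mir206 gave 570 and 314 CPM of the muscle sum. Every listed arm of Mir9-3, and of Mir199a-2 and Mir199b among the mesenchyme markers, also occurred in another hairpin. Their counts thus set no upper limit on their mature miRNAs. All sums here are of uniquely placed reads, so a low sum or a count of 0 sets no such limit where copies share an arm. The Mir181 genes were lower in replicate 1, as were 4 of 5 mesenchyme and cartilage markers and 5 of 7 epithelial markers. So were 4 of 5 eye and sensory markers and 2 of 3 erythroid markers. Each of these lower markers was called by the exact binomial test, as 27.8% of all tested genes were called lower. White blood cell markers were split, with 2 lower and 2 higher in replicate 1. The flat epithelial sum holds Mir203, whose CPM were 22575 and 15805 in replicates 1 and 2, and Mir429, whose CPM were 13418 and 18412. Both muscle markers with a count, all 3 such neural markers and Mir126a were higher in replicate 1. The tallies of lower and higher markers go by direction alone, and the median log2 ratio over all tested genes was 0.01. In the last group Mir206 and Mir126a were called (adjusted p = 1.66e-85 and 1.13e-85, exact binomial test), as 27.2% of all tested genes were called higher. Mir133b, Mir9-3 and Mir137 were not called (adjusted p = 0.456, 0.0909 and 0.374, exact binomial test). Mir124a-2, at 0.219 and 0.173 CPM, was below the count filter of that test. The part of the cell types in the Mir181 levels was not tested.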

How the data were processed

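The deposited files gave whole-number counts of reads per miRNA gene, which the authors made on mm10 and the M4 release of GENCODE, per the labels and the description files. Aligner, mismatch limit and trimming are not given in those sources. The files have no header, and the columns were read as unstranded, same-strand and opposite-strand counts, since the first equalled the sum of the others in every gene line (0 exceptions). The same-strand column was used, and the 4 lines of read classes stayed out of the totals.

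Gene names and coordinates were taken from release M21 of GENCODE, also on mm10 (1894 of 1973 identifiers matched, versions ignored) and sequences from RefSeq. Scaling used TMM in edgeR 4.0.16 (R 4.3.3) on genes with at least 10 counts in both libraries, and intervals and tests used scipy 1.17.1. The binomial test was tested on simulated Poisson counts. These hold no spread between samples, so they cannot show how the test behaves with such spread. Named genes were the 6 members, the 2 nearest genes of each in log2 CPM (pseudocount 0.5 counts), the Mir29, Mir15/Mir16 and Mir199 families and the cell type markers. Mir92-1 and Mir92-2 were named after their values were seen. The members and lists were chosen with earlier results of these data known. P-values set the difference between the 2 libraries against counting error and hold no estimate of the spread between samples, and reads without molecular identifiers are not independent molecules. Alternatives were the unstranded column, other denominators, count minimums of 1 and 100, total counts, DESeq2 1.42.0 size factors, 1 mismatch in the arm search and leaving out each library.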

Additional observations from a re-analysis of the deposited data

Results flagged for a closer look

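Reads with several places in the genome lie outside the counts per gene and outside every comparison here. There were 3179149 such reads in replicate 1 and 4058237 in replicate 2. They are a total over the whole library, and the files do not say which of them belong to miR-181a-5p or miR-181b-5p.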

How the results depend on the processing

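Of 120 values recomputed under alternatives, 33 could not have moved, since with 2 libraries each lies within 1 SD of their mean and opposite-strand counts were 0. Of the other 87, 71 stayed within the spread, the call or 1.5 times a count, 16 moved by more and 0 changed direction. The number of Mir181 genes with a shared arm was 4 by exact match and 5 with 1 mismatch. With all reads of the file as denominator the locus means were 1768 CPM for Mir181a-1/Mir181b-1, 820 CPM for Mir181a-2/Mir181b-2 and 5575 CPM for Mir181c/Mir181d. The first of these was 4291 CPM without the most abundant gene in the total and 3902 CPM with the unstranded column. The median of all 56 genes with some arms shared was 13.9 CPM; it was 56.7 CPM over those with at least 10 counts in both libraries and 52.0 CPM with 1 mismatch allowed. The 4 calls among the 6 Mir181 genes stood in all 5 alternatives of the binomial test. Over all genes the test called 198 of 360 with total counts and 197 of 360 with DESeq2 size factors. It called 206 of 552 at a count minimum of 1, 180 of 259 at a minimum of 100 and 209 of 369 with the unstranded column. The share of all genes called thus moved with the filter, and the 4 calls are no trait of the family. Leaving out a library gave the value of the other, as printed for each library above. No paired analysis was possible because there is a single group. Counts of 116 and 167 limit the precision of Mir181b-1.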

Other observations

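With 1 mismatch allowed in the search of other hairpins, 5 of the 6 Mir181 genes had a shared arm in place of 4. Mir181d joined the group and Mir181c alone had no shared arm. Mir181b-1 was the member whose arms both occurred elsewhere under this rule, while Mir181a-1, Mir181a-2 and Mir181b-2 kept an arm of their own. The 3p arms of the b copies differ by A9U alone over 21 positions. They are listed at 21 bases for Mir181b-1 and 22 bases for Mir181b-2, so their difference in class rests on the listed length. Mir181b-1 had the fewest uniquely placed counts of the family, and a link to its class was not tested. Whether the reads were placed with mismatches was not analysed here.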
